A study of Mus musculus with 27 samples.

Results

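Wild-type mouse embryos injected with siRNA against Kat6a (group siKat6a) were compared with embryos injected with a control siRNA (siControl) over every gene row of the deposited count table. The members were the 3 siKat6a and the 3 siControl libraries, 6 of the 27 libraries of the series, chosen by their group labels. The series concerns a microRNA, miR-203, and changes of cell fate in early embryos. In every siRNA group, zygotes were injected into the cytoplasm at E0.5 (days of embryonic development), grown in KSOM medium and harvested as morulae at E2.75, and each library came from a pool of 15 to 20 embryos. The labels give the genotype as wild type. The sources used here give neither the mouse strain nor the siRNA sequences nor the target of the control siRNA. Whole embryos were lysed, so a knockdown that was unequal between embryos or cells would appear as a pool average. The groups siP300, siKat6b and siComb, 3 libraries each, received siRNA at the same age and shared the estimate of spread with the siKat6a and siControl libraries. What siComb combined is not stated in the labels.

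KAT6A, also called MOZ, is a lysine acetyltransferase of the MYST family that modifies histone H3 and works in a complex with the scaffold proteins BRPF1, BRD1 or BRPF3 and the small subunits ING5 and MEAF6. KAT6B is its close paralog and can take its place in that complex. In mice, Kat6a is known for its role in Hox gene expression along the body axis and in blood stem cells, both after the morula stage. An siRNA acts on the messenger RNA, and protein was not measured here, so KAT6A protein stored in the egg is outside what these data show.

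No gene differed in expression between siKat6a and siControl embryos at an adjusted p under 0.05, and 90.2% of the genes with at least 10 CPM (the usual per-megaread scaling of counts, with library sizes adjusted by TMM) were shown to lie within 2-fold. Library totals were 10349804, 9086237 and 10738513 counts in siKat6a and 10115478, 10333444 and 11164806 counts in siControl. Mitochondrially encoded genes took 2.15 ± 0.241% of counts in siKat6a and 2.27 ± 0.281% in siControl (mean ± SD, n = 3), with p = 0.9 in a two-sided exact permutation test. After thinning to 9086237 counts, 15260 ± 249 genes in siKat6a and 15090 ± 46.7 in siControl had at least 10 counts (p = 0.4 in the same exact permutation test, in which 3 libraries against 3 cannot go below 0.1). The labelled cell type, morula blastomeres, was checked against 15 markers, of which 14 were tested and 11 were level within 2-fold, while Sox2 had 0 counts in all 6 libraries. Whether Sox2 shares sequence with another annotated gene was not examined, so a count of 0 may not mean absence. Dppa3, a maternal factor that protects DNA methylation, stood at 10020 CPM in siKat6a and 11480 CPM in siControl. Markers of other cells that an embryo pool could carry were low. The 10 cumulus and granulosa markers summed to 4.64 to 5.30 CPM in siKat6a and 3.46 to 4.01 CPM in siControl, ranges that did not overlap, with Ptx3 and Amh at 0 in all 6 libraries. A large part of that sum was Star, at 3.09, 3.02 and 4.11 CPM in siKat6a and 2.37, 2.32 and 2.44 CPM in siControl. The other cumulus and granulosa markers tested, Tnfaip6 and Foxl2, overlapped between the groups. The 8 oviduct and stroma markers summed to 11.2 to 19.03 CPM and 8.95 to 15.6 CPM, with Foxj1, Col1a2 and Lum at 0. Most of that sum was Pdgfra (mean 11.26 CPM in siKat6a and 9.07 CPM in siControl), which is also in the list of primitive endoderm genes below. The 8 blood and immune markers summed to 5.88 to 8.72 CPM and 7.77 to 8.77 CPM, with Hbb-bs at 0. The 6 oocyte markers, the remaining class, summed to 8.36 to 14.5 CPM and 7.13 to 12.3 CPM. The part of such cells in any result below was not tested.

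The siKat6a libraries lay about as far from siControl as from each other. The distance between a pair of libraries was taken as the SD over 8724 genes of their difference in log2 CPM. Between the groups the 9 distances ran from 0.321 to 0.458 with a median of 0.343. Within siControl the 3 distances ran from 0.303 to 0.354, and within siKat6a from 0.367 to 0.391. The median distance from a siControl to a siKat6a library was thus below the 3 distances inside siKat6a. The longest, 0.458, joined siKat6a replicate 3 and siControl replicate 3. From siControl the median distance was 0.462 to siKat6b, 0.903 to siP300 and 1.00 to siComb.

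**Figure D1:**
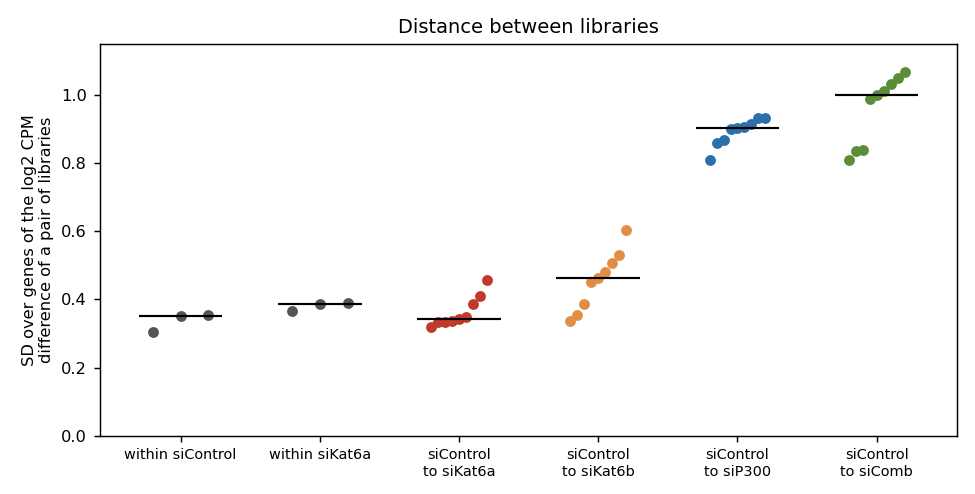
Distance between pairs of libraries (y axis, SD over 8724 genes of the difference in log2 CPM), with 1 point per pair and a line at the median. The 9 distances between siControl and siKat6a (0.321 to 0.458) have a median of 0.343, below the 0.388 within siKat6a, while those to siP300 and siComb have medians of 0.903 and 1.00.

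The target of the siRNA was examined first. Kat6a, on chromosome 8 at 22859535 to 22943259 of the plus strand (GRCm38, GENCODE vM21), shares no exon sequence with another annotated gene. Its counts were 128, 96 and 138 in the siKat6a libraries and 178, 158 and 171 in the siControl libraries. These correspond to 14.1, 11.1 and 13.5 CPM (12.9 ± 1.58, SD, n = 3) and to 19.2, 16.7 and 17.4 CPM (17.8 ± 1.29). Every siKat6a library was below every siControl library. The log2 fold change was -0.46 ± 0.20 (SE), a change of -27.2% with a 95% interval from -45.9% to -1.91%. In edgeR's quasi-likelihood test the unadjusted p was 0.0384 and the adjusted p was 1, so Kat6a was not called over all rows tested. Leaving out siKat6a replicate 2, the library with the lowest count, gave a log2 fold change of -0.36 (edgeR unadjusted p = 0.139). The interval excludes a loss of Kat6a mRNA as large as 2-fold, and the test of 2-fold equivalence described below placed Kat6a within those bounds (adjusted p = 0.021). The measured decrease is the average of a pool, and fewer affected cells and less RNA per cell cannot be told apart in such bulk samples.

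Kat6a was also compared with the other siRNA groups, in which it stood at 17.8 ± 0.383 CPM in siKat6b, 21.1 ± 1.05 in siP300 and 11.4 ± 1.30 in siComb. It was lower in siKat6a than in siP300 (log2 -0.71, edgeR adjusted p = 0.0136). Against siKat6b the log2 difference was of the size seen against siControl, -0.46, and did not pass (adjusted p = 0.6). Between siKat6a and siComb the log2 difference was 0.18 with an interval from -0.25 to 0.61 (adjusted p = 0.521). Kat6a fell in siComb against siControl (log2 -0.64, adjusted p = 0.022), so in this fit a Kat6a decrease of that size was called where many other genes were called too. The siKat6b and siP300 libraries had fitted decreases of similar size in their own targets, Kat6b (log2 -0.56, edgeR adjusted p = 0.495) and Ep300 (log2 -0.43, edgeR adjusted p = 0.259). Neither passed. Ep300 overlapped, at 17.9, 12.24 and 28.85 CPM in siP300 and 24.05, 24.93 and 30.65 CPM in siControl, with an interval from -1.035 to 0.18. Kat6b also had a lower fitted value in siP300 than in siControl (log2 -0.49, edgeR adjusted p = 0.174).

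**Figure D2:**
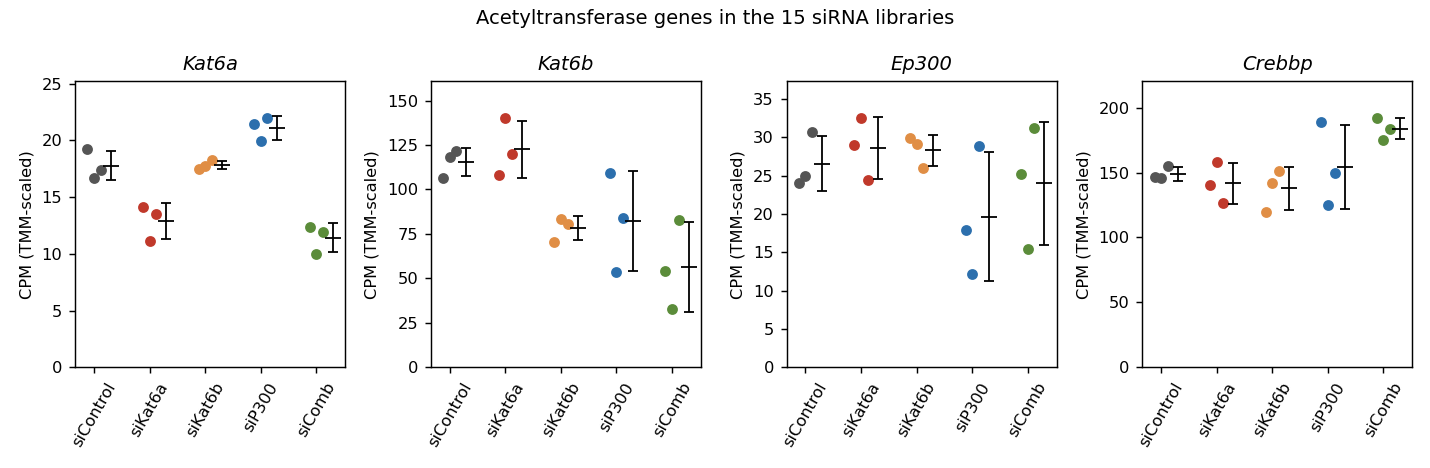
CPM (y axis, linear from 0) of Kat6a, Kat6b, Ep300 and Crebbp in the 15 siRNA libraries, with 1 point per library and the mean ± SD (n = 3) beside each group. Kat6a lies at 11.1 to 14.1 CPM in siKat6a and 16.7 to 19.2 CPM in siControl, while the other 3 genes overlap between these groups.

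Transcripts of 3 other acetyltransferase genes, Kat6b, Ep300 and Crebbp, did not move with Kat6a beyond 2-fold. Kat6b, the paralog, stood at 123 ± 16.0 CPM in siKat6a and 115 ± 7.91 CPM in siControl (log2 0.09 ± 0.27). Ep300, which encodes p300, stood at 28.6 ± 4.07 and 26.5 ± 3.58 CPM (log2 0.11 ± 0.29), and Crebbp, which encodes the related CBP, at 142 ± 15.9 and 149 ± 5.20 CPM (log2 -0.07 ± 0.16). The groups overlapped for all 3 genes. Each was level within 2-fold (adjusted p = 0.00676, 0.0101 and 0.000503 for Kat6b, Ep300 and Crebbp).

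Across the 19182 rows tested, 0 (0%) were called between siKat6a and siControl, and the smallest adjusted p of edgeR was 0.933. At an unadjusted p under 0.05 there were 410 rows (2.14%), 199 of them higher (1.04%) and 211 lower (1.1%) in siKat6a. The groups did not overlap in 1900 rows (9.91%), of which 1043 were higher (5.44%) and 857 lower (4.47%). The same fit called 4 rows (0.0209%) in siKat6b, 6789 (35.4%) in siP300 and 7036 (36.7%) in siComb, each against the same siControl libraries. Fitted fold changes were small, with a median of 0.005 on the log2 scale, quartiles at -0.20 and 0.22 and a median absolute value of 0.21. Other tools gave 0 calls with limma-voom and 1 with DESeq2, the gene model Gm16239. Without the filter on low counts edgeR called 15 of 32935 rows. Of these, Dazl, Lgals1, Adam23, Rgs2, Trir and Nupr1 are given with their values or counts further on, and the gene model Gm10244 held 113.8, 66.15 and 94.9 CPM in siKat6a and 125.8, 189.8 and 297.2 CPM in siControl.

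Whether a gene stayed level was asked separately, since a gene that misses the test of change is not thereby shown to be level. For each gene a pair of one-sided tests asked whether its log2 fold change lay inside bounds of 2-fold, with the larger p adjusted over all rows. By this measure 8982 rows (46.8%) were level within 2-fold, and 10200 were neither called nor shown level. Of those 10200, 9348 had a mean under 10 CPM. Among the 8724 genes with a mean of at least 10 CPM, 7872 (90.2%) were level, and among the 2063 genes with at least 100 CPM, 2009 (97.4%). Within the stricter bound of 1.5-fold, 0 rows (0%) passed after adjustment, while 3418 (17.8%) had an unadjusted 95% interval inside it. The spread in this fit was shared with the siP300, siKat6b and siComb libraries. A fit of the siKat6a and siControl libraries alone gave a smaller median SE, 0.24 against 0.32 for the genes in both fits, and again called 0 of 15642 genes, with 760 (4.86%) at an unadjusted p under 0.05. In that fit 10926 genes (69.9%) were level within 2-fold and 4567 (29.2%) within 1.5-fold.

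The smallest fold change that the libraries could have shown depended on abundance. With no call made, the first gene to be called would have needed an unadjusted p of 2.61e-06. For the 664 genes with over 300 CPM the median fold needed at that p was 2.38, and for the 1399 genes of 100 to 300 CPM it was 2.5. It was 2.746 at 30 to 100 CPM, 3.77 at 10 to 30 CPM and 7.24 at 3 to 10 CPM. For the 6965 genes under 3 CPM it was 56.0, so at such levels a change of an ordinary size was not detectable at this depth. A gene that changes along with many others needs less: at the p of the last gene called in siP300, 0.0177, the folds would be 1.39 over 300 CPM, 1.66 at 10 to 30 CPM and 4.66 under 3 CPM. For Kat6a itself the first-call fold was 2.64, a loss of 62.1%, against 1.45 at the p of the last siP300 call. The median 95% interval reached 1.31-fold to either side over 300 CPM, 1.503-fold at 10 to 30 CPM and 3.44-fold under 3 CPM. In the fit of the siKat6a and siControl libraries alone the first-call folds were 1.96 over 300 CPM, 2.62 at 10 to 30 CPM and 12.3 under 3 CPM.

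**Figure D3:**
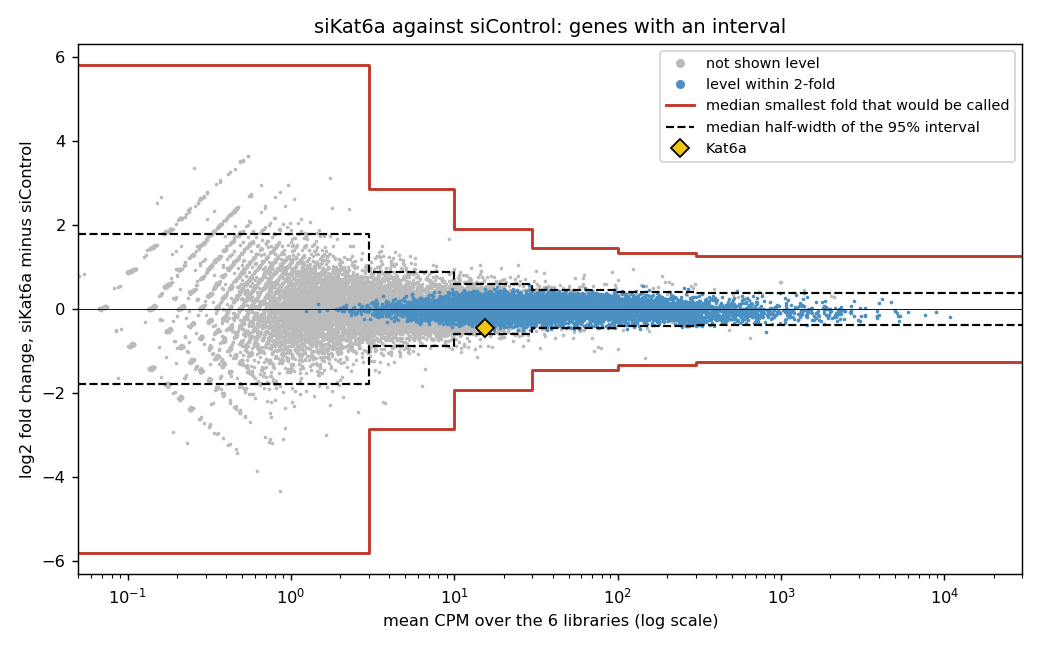
Log2 fold change of siKat6a minus siControl (y axis) against the mean CPM over the 6 libraries (x axis, log scale) for genes with a count in both groups. Blue points are level within 2-fold, solid lines give the median smallest fold that would have been called in each class of abundance (56.0 under 3 CPM, 2.38 over 300 CPM), and dashed lines give the median reach of the 95% interval.

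A gene called elsewhere in the same fit shows such a change in practice. Ndufa10, a subunit of respiratory complex I, held 219.2, 226.5 and 214.5 CPM in siKat6a, 217.6, 225.6 and 226.9 CPM in siControl, and 69.6, 101 and 73.4 CPM in siKat6b. It was lower in siKat6b than in siControl (log2 -1.46 ± 0.19, edgeR adjusted p = 0.00576) and higher in siKat6a than in siKat6b (log2 1.44 ± 0.19, adjusted p = 0.007). Between siKat6a and siControl its log2 fold change was -0.02 with an interval from -0.41 to 0.37, level within 2-fold. Ndufa10 was picked after its values were seen. It was 1 of 2 genes (0.0104% of those tested) called between siKat6a and siKat6b, the other being Tcaf1, which had 0 counts in the 3 siKat6a libraries and 1.24 to 2.03 CPM in siKat6b.

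Gene families were described by how many members were shown level, beside the 46.8% of all rows tested. In the 57 gene lists 0 of 2071 members tested were called, 29 (1.40%) had an unadjusted p under 0.05, and 1455 (70.3%) were level within 2-fold. Of the 1475 members with at least 10 CPM, 1371 (92.9%) were level, close to the 90.2% of all genes at that level. Of the 51 lists with at least 10 members tested, 15 had at least 90% of members level and 10 had under 50%, and 48 had a median log2 fold change within 0.2 of 0. The summed level of all members did not overlap between the groups in 5 of the 57 lists (8.77%, beside 9.91% of single rows). It was higher in every siKat6a library for 4 lists, retroelement silencing, the integrated stress response, germline genes and the cumulus markers given above, and lower for trophectoderm genes.

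The partners of KAT6A and the other acetyltransferases were level in nearly all cases, as were most genes of their abundance. Of 33 MYST acetyltransferases and complex subunits tested, 31 (93.9%) were level, with a median log2 fold change of 0.06. Of the 29 with at least 10 CPM, 28 were level, beside 90.2% of all genes at that level. Brpf1, the main scaffold of the KAT6A complex, stood at 19.65, 26.8 and 21.0 CPM in siKat6a and 21.1, 25.8 and 17.9 CPM in siControl (log2 0.06 ± 0.24). The alternative scaffold Brd1 stood at 76.7, 82.2 and 74.0 CPM against 78.5, 71.9 and 79.8 CPM (log2 0.02 ± 0.18). The libraries of both groups were interleaved for each scaffold. Ing5 (log2 -0.04 ± 0.17) and Meaf6 (log2 0.05 ± 0.20), the small subunits, and Kat7 (log2 -0.01 ± 0.19) and Kat8 (log2 0.13 ± 0.21), MYST enzymes of other complexes, were level too. Kat6a was the one member of this list with an unadjusted p under 0.05. Kat5, the catalytic subunit of the TIP60 complex, was not shown level (log2 0.47 ± 0.31, interval -0.19 to 1.12). Among p300, CBP and the other acetyltransferases, 19 of 20 were level, and 17 of 17 with at least 10 CPM. Their median was -0.01 and their range ran from -0.18 to 0.19. Hat1, which acetylates newly made histone H4, stood at 557 CPM in siKat6a and 567 CPM in siControl.

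**Figure D4:**
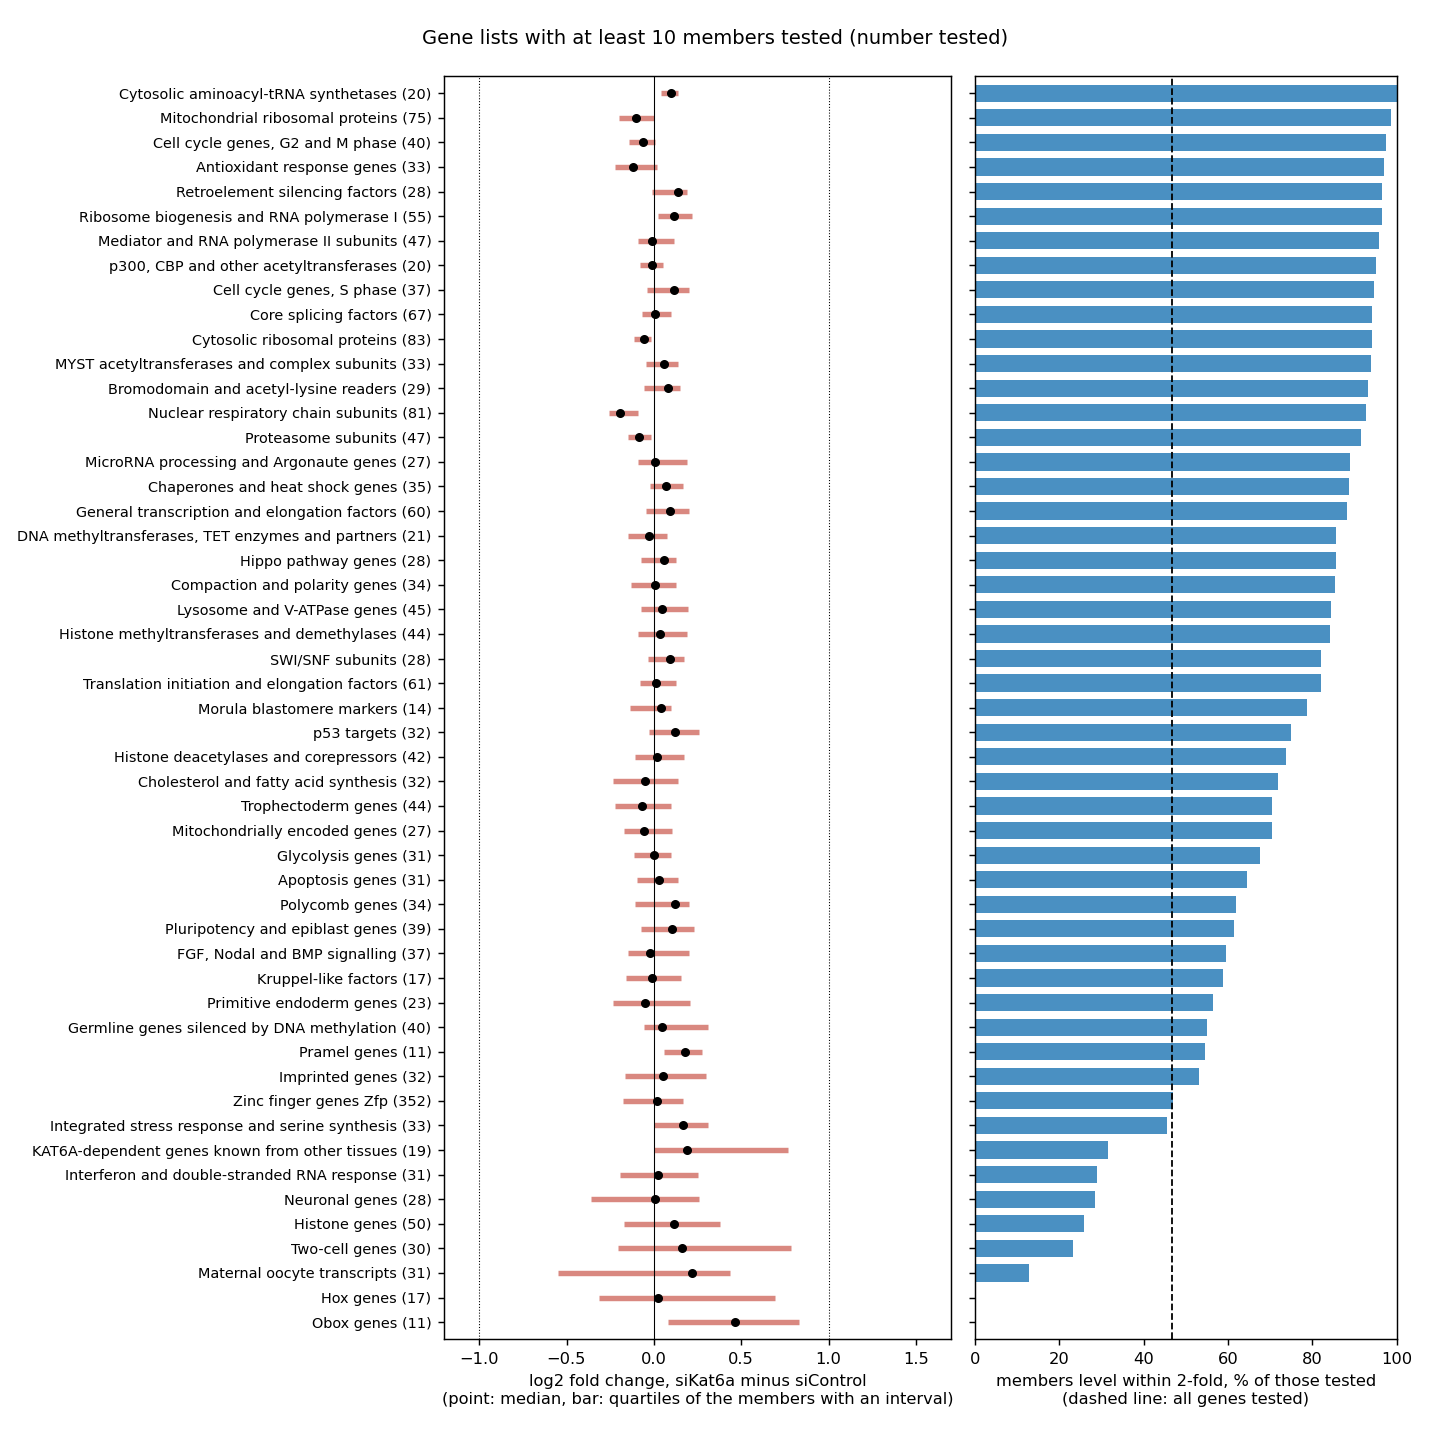
Log2 fold change of siKat6a minus siControl in the 51 gene lists with at least 10 members tested (left, median and quartiles over members with a count in both groups, dotted lines at 2-fold) and the share of members level within 2-fold (right, dashed line at the 46.8% of all rows). Lists of abundant housekeeping genes lie near 100%, and lists of rare transcripts such as Hox and Obox genes lie at 0% with wide quartiles.

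Most members of the families that serve protein synthesis, energy and division were level, at shares near the 97.4% of all genes with at least 100 CPM or below it. All 20 cytosolic aminoacyl-tRNA synthetases were level (100%), and Eprs, for example, stood at 232 CPM in siKat6a and 224 CPM in siControl. Of the cytosolic ribosomal protein genes 78 of 83 (94%) were level, with a median of -0.06 and quartiles at -0.12 and -0.02. In siP300 73 of those 83 fell against siControl (15.7% of all rows fell there). In the direct test 70 of 83 differed between siKat6a and siP300, beside 34.9% of all rows. Their summed level was 132200, 116200 and 121400 CPM in siKat6a and 123100, 131500 and 134700 CPM in siControl, so the groups overlapped. Rplp0, of the ribosomal stalk, stood at 4243, 4207 and 4047 CPM against 3754, 3865 and 3684 CPM (log2 0.14 ± 0.17). All 3 siKat6a libraries were above siControl, and the gene was nevertheless level within 2-fold (adjusted p = 0.000747). Reads of ribosomal protein genes can be shared with their many pseudogenes, so single members are uncertain. Rpl13a, at 26.6, 26.3 and 36.1 CPM against 22.5, 22.0 and 15.8 CPM, had an unadjusted p of 0.0328 and was not shown level.

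Of the mitochondrial ribosomal protein genes 74 of 75 (98.7%) were level, with a median of -0.10. Nuclear genes of the respiratory chain were level in 75 of 81 cases (92.6%), with the lowest median among lists of at least 10 members, -0.19, and quartiles at -0.26 and -0.09. Ndufa5, a complex I subunit with 361, 323 and 324 CPM in siKat6a and 381, 417 and 535 CPM in siControl, had the smallest p of that list (unadjusted p = 0.0267, log2 -0.40 ± 0.17). The groups did not overlap, and Ndufa5 was still level within 2-fold. The list summed to 29650, 27040 and 24540 CPM in siKat6a and 28460, 28540 and 34590 CPM in siControl, with siControl replicate 3 highest and siKat6a replicate 1 inside the siControl range. Mitochondrially encoded genes were level in 19 of 27 cases, and in all 14 with at least 10 CPM. Splicing factors (63 of 67), Mediator and RNA polymerase II subunits (45 of 47), ribosome biogenesis genes (53 of 55) and proteasome subunits (43 of 47) had medians between -0.09 and 0.12. Translation initiation and elongation factors were level in 50 of 61 cases and glycolysis genes in 21 of 31, and with at least 10 CPM in 50 of 54 and 18 of 19. Of the cell cycle genes, 35 of 37 of S phase and 39 of 40 of G2 and M phase were level. Birc5, which encodes survivin, stood at 781.5 and 856.5 CPM, and Rrm2, a ribonucleotide reductase subunit, at 1269 and 1242 CPM in siKat6a and siControl.

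Chromatin regulators outside the acetyltransferases were level in most cases. Bromodomain and other acetyl-lysine readers were level in 27 of 29 cases (93.1%), histone methyltransferases and demethylases in 37 of 44, SWI/SNF subunits in 23 of 28 and Polycomb genes in 21 of 34. DNA methyltransferases, TET enzymes and their partners were level in 18 of 21, and histone deacetylases with corepressors in 31 of 42. Of the members with at least 10 CPM, 24 of 24 readers, 37 of 38 methyltransferases and demethylases, 22 of 23 SWI/SNF subunits, 15 of 16 DNA methylation genes and 27 of 29 deacetylases and corepressors were level. Among Polycomb genes with at least 10 CPM 19 of 23 were level, so the other 4 were not shown level at an abundance where 90.2% of all genes were. Retroelement silencing factors were level in 27 of 28 cases (96.4%) with a median of 0.14, and summed to 4292, 3888 and 4031 CPM in siKat6a and 3751, 3838 and 3818 CPM in siControl, without overlap. Trim28, their central corepressor, stood at 294, 326 and 297 CPM in siKat6a and 283, 282 and 246 CPM in siControl (log2 0.18 ± 0.20). Its groups did not overlap, and it was level within 2-fold. Smarcd3, a SWI/SNF subunit with 9.72 CPM in siKat6a and 5.65 CPM in siControl (log2 0.78 ± 0.31, unadjusted p = 0.0234), was not shown level. Only 13 of 50 histone genes were level, and most replication-dependent histone messages lack the poly(A) tail that the protocol selects. Of the 13 histone genes with at least 10 CPM, 11 were level, H2az1 (2037 and 2313 CPM) and H3f3b (2201 and 2396 CPM) among them.

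The first lineage decision of the embryo begins at the morula stage, when outer cells turn toward trophectoderm and inner cells keep pluripotency genes. Of 39 pluripotency and epiblast genes tested, 24 (61.5%) were level, and of the 28 with at least 10 CPM again 24. In the fit of the siKat6a and siControl libraries alone, 15 of 35 were level within 1.5-fold, beside 29.2% of all genes. Nanog stood at 209, 244 and 207 CPM in siKat6a and 213, 220 and 186 CPM in siControl (log2 0.09 ± 0.39). Pou5f1, which encodes OCT4, stood at 38.4, 50.1 and 74.0 CPM against 55.7, 54.5 and 35.0 CPM (log2 0.16 ± 0.34). Both genes overlapped between the groups and were level within 2-fold. Dppa3 varied more inside the groups than between them, at 13400, 8910 and 7751 CPM against 9999, 9536 and 14900 CPM.

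Of 44 trophectoderm genes 31 (70.5%) were level, with a median of -0.07. In the fit of the siKat6a and siControl libraries alone, 21 of 41 were level within 1.5-fold, beside 29.2% of all genes. The list summed to 6785, 6769 and 6776 CPM in siKat6a and 7811, 7396 and 6887 CPM in siControl, so every siKat6a library was below every siControl library, with siControl replicate 3 close to them. Gata3 (log2 -0.12 ± 0.34) and Tead4 (log2 0.09 ± 0.29), transcription factors of that lineage, were level. Cdx2, the lineage's homeobox factor, stood at 21.6, 23.9 and 21.0 CPM in siKat6a and 28.3, 35.9 and 28.9 CPM in siControl. Its groups did not overlap, the unadjusted p was 0.258, and the interval of its log2 fold change, -1.36 to 0.39, reached past 2-fold. That interval uses the spread shared with the other siRNA groups. In the fit of the siKat6a and siControl libraries alone the Cdx2 log2 fold change was -0.49 (edgeR unadjusted p = 0.0134, adjusted p = 0.957). In that fit 4.86% of all genes had an unadjusted p under 0.05. The keratins of the trophectoderm had lower means in siKat6a but overlapped: Krt8 stood at 259, 234 and 326 CPM against 427, 365 and 280 CPM and was level, and Krt18 at 346, 284 and 560 CPM against 702, 526 and 458 CPM was not shown level (log2 -0.50 ± 0.28). Primitive endoderm genes were level in 13 of 23 cases, compaction and polarity genes in 29 of 34 and Hippo pathway genes in 24 of 28. Cdc42, a GTPase of cell polarity, and Epcam, an epithelial adhesion molecule, stood at 819 and 337 CPM in siKat6a and 874 and 361 CPM in siControl.

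Transcripts of the 2-cell stage and of MERVL, the endogenous retrovirus active at that stage, were mostly not shown level. They were rare, or variable in the spread shared with the other siRNA groups. MERVL-int held 23.3, 29.8 and 46.6 CPM in siKat6a and 25.6, 35.8 and 24.1 CPM in siControl, and the groups overlapped. Its log2 fold change was 0.22 ± 1.03 with an interval from -1.96 to 2.40. That SE rests on the other siRNA groups, which reached 378 ± 425 CPM in siP300, 641 ± 524 in siKat6b and 352 ± 504 in siComb. In the fit of the siKat6a and siControl libraries alone the log2 fold change was 0.22 ± 0.23 with an interval from -0.27 to 0.70, level within 2-fold (adjusted p = 0.00324). MERVL-int was lower in siKat6a than in siP300 (log2 -3.50, edgeR adjusted p = 0.0217) and did not pass against siKat6b (log2 -4.27, adjusted p = 0.313). MERVL_2A-int stood at 26.4 ± 2.72 and 21.8 ± 3.24 CPM in siKat6a and siControl and was level (adjusted p = 0.0248).

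Of 30 2-cell genes tested, 7 (23.3%) were level, among them Dppa2 (744 and 665 CPM) and Dppa4 (333 and 317 CPM), activators of that stage, and Eif1a (374.5 and 384 CPM). The fit of the siKat6a and siControl libraries alone tested 14 2-cell genes. Of these, 6 were level within 1.5-fold, beside 29.2% of all genes in that fit. Zscan4c had 6 counts in siKat6a and 12 in siControl over 3 libraries each, and its interval ran from -5.59 to 3.74. Sp110 stood at 43.0, 36.3 and 44.9 CPM in siKat6a and 16.0, 35.2 and 15.1 CPM in siControl. The siKat6a libraries were all higher, siControl replicate 2 lay close to them, and the log2 fold change was 0.91 ± 0.48 (unadjusted p = 0.0783). Obox6, an oocyte-specific type homeobox gene, held 120.0, 71.0 and 46.0 CPM against 31.6, 74.99 and 27.5 CPM, overlapping, with an interval from -0.99 to 2.63. It was the one Obox gene of 11 tested with at least 10 CPM, and none of the 11 was level. Members of these families have near-identical copies, and how reads were split among them is not given in the sources used here. Maternal oocyte transcripts were level in 4 of 31 cases (12.9%).

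Genes known to depend on KAT6A in other tissues of the mouse were rarely expressed. Of 29 such genes 19 were tested and 5 had no count in the 6 libraries. The 6 members with at least 10 CPM were all level: Ezh2, the Polycomb methyltransferase, at 152, 164 and 147 CPM in siKat6a and 125, 141 and 133 CPM in siControl (log2 0.22 ± 0.19), and Cdc6, Melk, Bmi1, Runx1 and Pik3ca with log2 fold changes from -0.003 to 0.16. Every siKat6a library held more Ezh2 than every siControl library, with an unadjusted p of 0.266. The remaining 13 members tested were not shown level. Meis1, a Hox cofactor, stood at 7.51, 6.27 and 3.33 CPM against 6.26, 5.70 and 8.15 CPM, with an interval from -1.56 to 1.08. Of 39 Hox genes 14 had no count in the 6 libraries, 17 were tested and 0 were level. Hoxd9 stood at 5.74, 6.27 and 3.53 CPM against 5.18, 3.17 and 5.09 CPM (log2 0.21 ± 0.43). Hoxa10 stood at 5.52, 2.55 and 1.47 CPM against 1.08, 1.27 and 1.83 CPM, overlapping, with an interval from -0.20 to 2.56. At this depth a 2-fold change of a Hox gene was not detectable.

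Stress and defence programmes showed no called gene. Antioxidant genes were level in 32 of 33 cases (97%), p53 targets in 24 of 32 and chaperones in 31 of 35. Of 33 genes of the integrated stress response and serine synthesis 15 (45.5%) were level. The list summed to 1769, 1719 and 1787 CPM in siKat6a and 1531, 1594 and 1298 CPM in siControl, higher in every siKat6a library. In that list 3 of 33 had an unadjusted p under 0.05 with higher values in siKat6a, beside 1.04% of all rows: Chac1, Pycr1 and Psat1. A large part of the summed level was Psat1. Psat1, a serine synthesis enzyme, stood at 592, 642 and 602 CPM in siKat6a and 517, 490 and 367 CPM in siControl (log2 0.42 ± 0.17, unadjusted p = 0.0223). Its groups did not overlap, and it was level within 2-fold (adjusted p = 0.00531). Interferon and double-stranded RNA response genes, which an injected RNA could touch, were level in 9 of 31 cases (29%) with a median of 0.02 over the 28 members with a count in both groups, and 10 of 45 had no count in the 6 libraries. Adar, an RNA-editing enzyme, stood at 14.6 and 15.3 CPM and was level. MicroRNA processing and Argonaute genes, on which siRNA also depends, were level in 24 of 27 cases. X- and Y-linked dosage markers, which follow the share of female and male embryos in a pool, were level in 0 of 8 cases. Xist, for example, stood at 139, 336 and 408 CPM in siKat6a and 257, 233 and 209 CPM in siControl, a wider range inside siKat6a than inside siControl.

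The genes with the smallest unadjusted p in each direction were taken as values only, since none was called. Among the higher ones, Dazl, an RNA-binding protein of germ cells, held 17.4, 14.2 and 10.4 CPM in siKat6a and 4.75, 3.06 and 5.50 CPM in siControl (log2 1.65 ± 0.44, unadjusted p = 0.00181). All siKat6a libraries exceeded all siControl libraries. Dazl was called without the filter on low counts and in no other setting, and in the fit of the siKat6a and siControl libraries alone its adjusted p was 0.148, the smallest of that fit. Il18, an inflammatory cytokine, held 90.7, 69.2 and 70.7 CPM against 43.8, 49.6 and 44.2 CPM (log2 0.74 ± 0.23). Rcan1, an inhibitor of calcineurin, held 36.2, 43.4 and 33.3 CPM against 23.9, 27.04 and 19.6 CPM (log2 0.68 ± 0.19). Neither gene overlapped between the groups, a pattern shared by 5.44% of all rows in that direction. Sdc1, a cell surface proteoglycan, had group means of 12.4 and 6.72 CPM, and Snai1, a repressor of epithelial genes, of 6.46 and 2.66 CPM. Cyb5r2, a reductase gene that overlaps Ppfibp2 on the opposite strand, had means of 5.34 and 1.89 CPM. In siKat6b, Il18 (119, 63.5 and 68.0 CPM), Sdc1, Snai1 and Cyb5r2 also lay above every siControl library. Dazl (17.97, 5.98 and 5.48 CPM) and Rcan1 overlapped siControl there. In siP300 and in siComb, Dazl, Rcan1, Sdc1, Snai1 and Cyb5r2 lay above every siControl library. Dazl, for example, held 14.94, 23.24 and 14.89 CPM in siP300 and 49.86, 63.83 and 24.26 CPM in siComb. Il18 overlapped siControl in siP300 and lay below every siControl library in siComb. Whether such shifts belong to siKat6a or come from the shared siControl libraries was not tested.

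Among the lower ones, Lgals1, which encodes the sugar-binding galectin-1, held 61.3, 57.6 and 44.3 CPM in siKat6a and 101, 127 and 82.9 CPM in siControl (log2 -0.93 ± 0.21, unadjusted p = 0.000361). The groups did not overlap, and Lgals1 too was called without the filter on low counts. Sdcbp2, a syntenin-type adaptor, held 10.6, 7.43 and 8.03 CPM against 22.7, 20.9 and 13.4 CPM (log2 -1.13 ± 0.29). Adam23, at 2.65, 5.57 and 2.55 CPM against 7.98, 10.8 and 9.98 CPM, and Tenm2, at 1.55, 2.55 and 1.18 CPM against 3.24, 4.96 and 6.11 CPM, are genes of cell contacts in the nervous system, and Adam23 was called without that filter as well. For these 3 genes as well every siKat6a library lay below every siControl library, as for 4.47% of all rows. In siKat6b, Lgals1 (66.0, 75.7 and 62.7 CPM), Sdcbp2 and Adam23 also lay below every siControl library, and Tenm2 overlapped siControl. In siP300, Lgals1 (222, 183 and 143 CPM) and Adam23 lay above every siControl library. The 6 other lower genes of the 10, Sh3bgrl, Tcaf1, Vwc2, Nyap2, Chl1 and Alox12b, had 0 counts in siKat6a and 8 to 22 counts over the 3 siControl libraries. These 6 genes passed the filter on low counts through other siRNA groups. Sh3bgrl, for example, held 17.53, 17.43 and 28.58 CPM in siP300. The p-values of these 6 genes use the spread shared with those groups. They were not tested in the fit of the siKat6a and siControl libraries alone. Taking 3 counts over the group of 3 libraries as the floor, their levels were 2.6-fold to 7.16-fold lower. These ratios have no interval, since they leave out the sampling of the few counts in the other group. In the other direction Rgs2, Lgr6 and Ppp1r32 had 0 counts in siControl and 16, 20 and 24 counts over the 3 siKat6a libraries. By the same floor they were 5.46-fold, 6.83-fold and 8.19-fold higher. Ppp1r32 rested mostly on siKat6a replicate 1, with 1.99, 0.696 and 0 CPM in siKat6a, and its groups overlapped. Rgs2 was also among the rows called without the filter. In the main fit it was called in siKat6b against siControl (edgeR adjusted p = 0.00576), at 0.898, 2.27 and 2.84 CPM in siKat6b. Most counts in the files are even, and if a fragment gave 2 counts, the ratios by that floor would be 1.3-fold to 3.58-fold lower and 2.73-fold, 3.41-fold and 4.1-fold higher. Arhgap20, the last of the higher genes, had 21 and 4 counts. Rgs2, Lgr6, Ppp1r32 and Arhgap20 also passed the filter through other siRNA groups, Rgs2 at 13.28, 11.21 and 13.15 CPM in siP300. Arhgap20 overlaps Arhgap20os on the opposite strand, and the strand setting of the counting is not given in the sources used here. Sh3bgrl overlaps Gm6377 on the same strand. Counts this small rest on few molecules, which cDNA amplification can multiply.

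**Figure D5:**
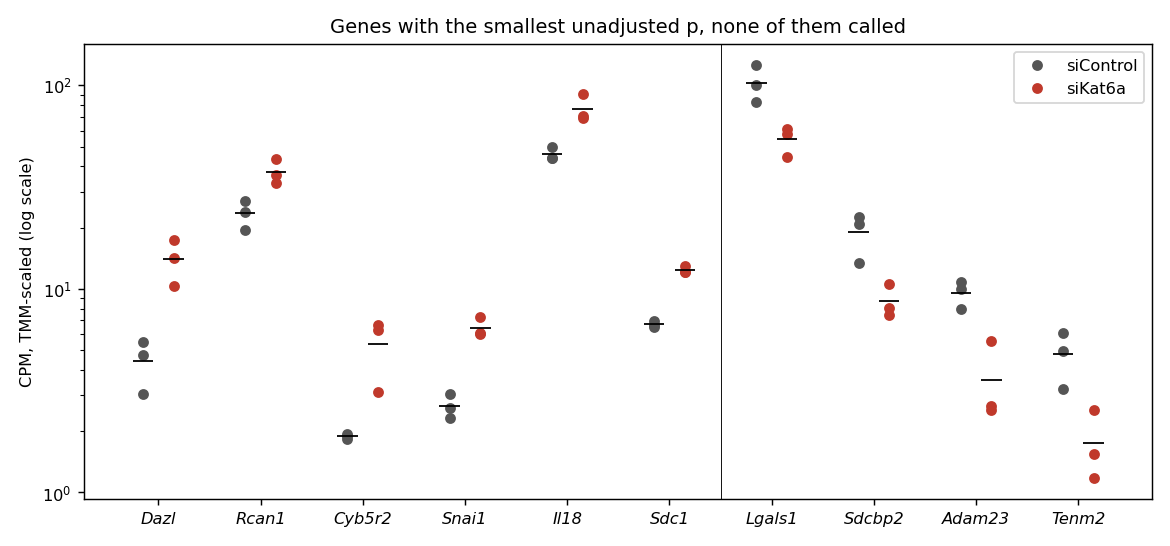
CPM (y axis, log scale) of the 10 genes with at least 1 CPM among those with the smallest unadjusted p, higher in siKat6a to the left of the vertical line and lower to the right, with 1 point per library and a line at the group mean. The groups do not overlap for any of the 10 genes, and none was called.

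Only 6 rows with a mean of at least 10 CPM had a fitted change past 2-fold. They were Sdcbp2, Trir, Nupr1 and the gene models Gm10244, Gm29040 and Gm16028, of which Trir, Nupr1 and Gm10244 were called without the filter on low counts. Trir, an exoribonuclease gene, held 49.9, 36.2 and 56.4 CPM in siKat6a and 61.5, 103 and 121 CPM in siControl (log2 -1.002 ± 0.345), without overlap. Nupr1, a stress-induced chromatin protein, held 32.0, 25.8 and 41.7 CPM against 5.61, 29.8 and 12.9 CPM (log2 1.04 ± 0.70), and overlapped.

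Set directly against the other siRNA groups, siKat6a embryos differed from siP300 in 6688 rows (34.9%) and from siComb in 6899 (36%), and from siKat6b in 2 (0.0104%). Relative to siP300, 2979 rows (15.5%) were higher and 3709 (19.3%) lower in siKat6a. Trophectoderm genes differed between siKat6a and siP300 in 27 of 44 cases, pluripotency genes in 21 of 39 and mitochondrially encoded genes in 17 of 27. In each of these 3 lists 0 members were called between siKat6a and siControl.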

How the data were processed

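RNA was sequenced from pools of 15 to 20 morulae after poly(A) selection and low-input cDNA amplification, per the labels' protocols. The authors deposited counts per gene, raw and not normalized. The submitters' processing notes name STAR 2.7.11a, Subread 2.0.6 with featureCounts, MultiQC and Scanpy 1.8.2, with the builds mm10 and GRCh38 and no roles. No source used here states the strand setting or the treatment of reads that match several copies. Of the nonzero counts 84.5% were even, so counts may be doubled (a fragment's mates counted separately), which no source used here settles, and an alternative used halved counts. Gene rows were equal in 27 of 27 single-sample files and the series table of 55369 rows, which adds 2 MERVL rows. Library totals in the series ran from 7633990 to 11991314.

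The main test was edgeR's quasi-likelihood test (edgeR 4.0.16, R 4.3.3) on the deposited counts of the 15 siRNA libraries, with TMM scaling, filterByExpr with a minimum count of 10, group as the only term and Benjamini-Hochberg adjustment over all 19182 rows. A gene was called at an adjusted p under 0.05. A gene was level when both one-sided tests against bounds of 2-fold passed after adjustment, and the same was run at 1.5-fold. Intervals are 95% intervals from the fitted SE. Rows at 0 in a whole group, 610 of those tested, have no interval and could not be level. The smallest callable fold of a gene was taken from its SE and the p needed for a call. List medians and ranges use fitted values unless restricted to members with a count in both groups. Alternatives used limma 3.58.1 and DESeq2 1.42.0, other scalings, filters and sets of libraries. Scripts were checked on simulated data. Python 3.11.15, pandas 2.3.3, numpy 2.4.6 and matplotlib 3.10.9 made the annotation and figures.

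The comparison, the gene lists and the tests were chosen with earlier results of these data known. Named genes were the siRNA targets, members of the lists and the 10 genes with the smallest p in each direction, which may also be list members. Gene models without an established name were passed over among the last (4 higher, 2 lower). The labels number the replicates but do not say that they came from separate injections or days, so p-values measure the spread between these pools, which may be technical in part. The deviations of same-numbered libraries from their group means correlated at -0.10, 0.08 and -0.36, so the numbers were not taken to pair the libraries.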

Additional observations from a re-analysis of the deposited data

How the results depend on the processing

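Of 17 other settings, all but 2 called 0 genes between siKat6a and siControl: without the filter on low counts edgeR called 15 of 32935 rows (smallest adjusted p = 0.000248), and DESeq2 called 1. At an unadjusted p under 0.05 the counts ran from 212 (filter at a mean of 5 CPM) to 931 (limma-voom). Leaving out each library in turn gave 0 to 0 calls and 7011 to 7592 genes level within 2-fold, and over all settings that number ran from 7011 to 10926. Within 1.5-fold the count was 0 in the main design, 4567 with the siKat6a and siControl libraries alone, 4265 with limma-voom, 524 with DESeq2 and 3418 by the unadjusted 95% interval, and the cause of these differences was not tested. The log2 fold change of Kat6a lay between -0.53 and -0.36 when single libraries were left out, and Kat6a was not called in any setting. Its edgeR unadjusted p with a library left out ran from 0.0415 to 0.139. It was under 0.05 only without siKat6a replicate 1. With library size alone as scaling that p was 0.0691, and without the filter on low counts 0.139. The log2 fold change of 3 other genes crossed 0 when single libraries were left out. For Kat6b it ran from -0.017 (without siKat6a replicate 2) to 0.172, for Crebbp from -0.159 to 0.003 (without siKat6a replicate 3) and for MERVL-int from -0.104 (without siKat6a replicate 3) to 0.425. With the replicate number as a block, 0 genes were called, 333 had an unadjusted p under 0.05 and 8755 were level within 2-fold. Kat6a stood at -0.46 there (edgeR unadjusted p = 0.0455). The labels do not say whether the numbers pair the libraries. Scaling by library size alone moved the median log2 fold change of all genes to 0.04. Of 200 list members followed through the settings, 141 were level in the main design, and 2248 of their 2396 values under other settings were level. Low counts limit the comparison: of the genes under 3 CPM, 0.689% were shown level, against 98% over 300 CPM.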
